A study of Mus musculus with 32 samples.

Results

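Lin28a, Lin28b and 8 genes of the same embryonic timing programme (Trim71, Hmga2, Igf2bp1, Igf2bp2, Igf2bp3, Prtg, Igdcc3 and Nr6a1) were followed through differentiation of J1 cells, a mouse embryonic stem cell line of the 129S4/SvJae strain. They are 10 of the 20612 genes listed in at least 1 library, and each was listed in all 32 libraries. The 10 were matched by symbol. They were chosen by their FPKM in these libraries, as Lin28 pathway genes and early-embryo genes that fell late in embryoid bodies, so their levels at days 9, 12 and 20 of the global course are a description here, with no test.

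The cultures received a plastics compound at 100 nM, which was BPA (bisphenol A), BPF (its F analog) or BPS (its S analog), or the solvent DMSO as control. Embryoid bodies (EBs), the floating aggregates in which stem cells differentiate, were taken at days 4, 6, 9, 12 and 20 for the global course. For the neural course, EBs given retinoic acid (RA) were taken at day 8 and monolayer neural progenitor cells (NPCs) at day 10. The undifferentiated embryonic stem cells (ESCs, day 0) and the day 4 EBs belong to both courses. Each of the 8 stages has 1 library for each of the 4 treatments. A stage is therefore described by 4 libraries under 4 treatments, and each bisphenol and the DMSO control by 1 library at a stage. All groups come from 1 cell line, and the labels name no independent cultures. The p-values thus measure the spread between these libraries, which may be technical.

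The libraries held 9574833 to 11070149 expected reads on genes and listed 16326 to 17839 genes. The ESC libraries carried summed FPKM (fragments scaled to transcript length and library size) of 2819 to 2946 over 9 pluripotency markers, and the NPC libraries 60.2 to 82.2. The summed level of 9 neural progenitor markers was 921 to 1044 FPKM in the NPC libraries, where 8 neuron markers summed to 2262 to 2457 FPKM, so the monolayer labelled NPC carried both. In such bulk samples fewer cells of a type and less RNA per cell cannot be told apart.

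In the worm and in mammals, LIN28 proteins bind precursors of the let-7 microRNA and block their maturation. Mature let-7 pairs through its seed with the 3′ untranslated regions (UTRs) of many embryonic mRNAs, Lin28 mRNAs included, so that high Lin28 and high let-7 exclude each other. The programme is known for keeping stem and progenitor cells in an early developmental state, also in the neural tube, and for declining as tissues mature. Mature microRNAs were not measured in these libraries.

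The let-7 seed is shown first because let-7 targeting is part of the pathway for which the members were picked. The RefSeq (GRCm38.p6) table used here gives 11 mature mouse microRNAs with the same bases 2 to 8, given in capitals, while let-7j differs in its seed. Examples are let-7a, let-7g, miR-98 and the let-7j exception, together with miR-125b, which is encoded beside let-7 at several loci.
let-7a: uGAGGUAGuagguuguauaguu
let-7g: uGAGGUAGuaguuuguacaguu
miR-98: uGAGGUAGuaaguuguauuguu
let-7j: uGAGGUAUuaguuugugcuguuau
miR-125b: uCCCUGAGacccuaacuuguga

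The site that pairs with the let-7 seed is CTACCTC, read on the sense strand of the mRNA only, or CTACCTCA when an A follows it. It was searched in the longest GENCODE M21 3′ UTR that corresponds to a deposited RefSeq transcript. All 10 members held at least 1 CTACCTCA, against 3.44% of the 14466 genes with such a UTR and 4.52% of those whose UTR was at least as long as the shortest of the members (538 bases). For CTACCTC the shares were 10 of 10 and 9.84%. Among members, 8 of 10 had 2 or more matches, against 1.19% of all genes, and 5 of 10 had 4 or more, against 0.0622%. Among genes with a UTR of at least 538 bases these shares were 1.67% and 0.0877%. The median UTR length was 3711 bases in the members and 1086 over all genes, and longer UTRs have more room for matches. The density was 0.891 matches per kilobase in the members and 0.0718 over all genes. The pathway was known when the members were picked, so these shares carry no test, and a match is not by itself a functional site.

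Examples of the 32 matches follow, each with 29 bases of GRCm38 sequence on the mRNA strand and the match in capitals. They are the match nearest the stop codon in Lin28a, Lin28b, Hmga2 and Igf2bp3, both matches of Igdcc3, which has the shortest UTR, and 2 of the 8 of Nr6a1, the gene with the most matches of all 14466.
Lin28a, chr4:134005186-134005214, minus strand: agtgcacagcctgttgaaCTACCTCAttt
Lin28b, chr10:45381019-45381047, minus strand: ttcacccgggcgggaagtCTACCTCAtgc
Hmga2, chr10:120364221-120364249, minus strand: ggcgccgacattcaatttCTACCTCAgca
Igf2bp3, chr6:49086784-49086812, minus strand: acgtgcatttttactcaaCTACCTCAggt
Igdcc3, chr9:65185704-65185732, plus strand: tgttgtgactctcagcacCTACCTCAgcc
Igdcc3, chr9:65185784-65185812, plus strand: cagagcccgaaagcactcCTACCTCAagc
Nr6a1, chr2:38727446-38727474, minus strand: taatgttgacaaagacaaCTACCTCAatg
Nr6a1, chr2:38726589-38726617, minus strand: aaggaaaggggcattaaaCTACCTCAtgt

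All of these windows lie in the 3′ UTR of the gene named. Lin28b, Trim71, Hmga2 and Igf2bp1 had 4 matches each, Lin28a and Prtg 2 each, and Igf2bp2 and Igf2bp3 1 each. Of the 32 matches 30 lay inside the RefSeq gene bounds, and the other 2 lay in the longer GENCODE UTR of Trim71. With those 2 left out, 4 of 10 members had 4 or more. The miR-125 site CTCAGGG was present in 6 of 10 members and in 14.8% of all genes, with 3 matches in Prtg.

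**Figure D1:**
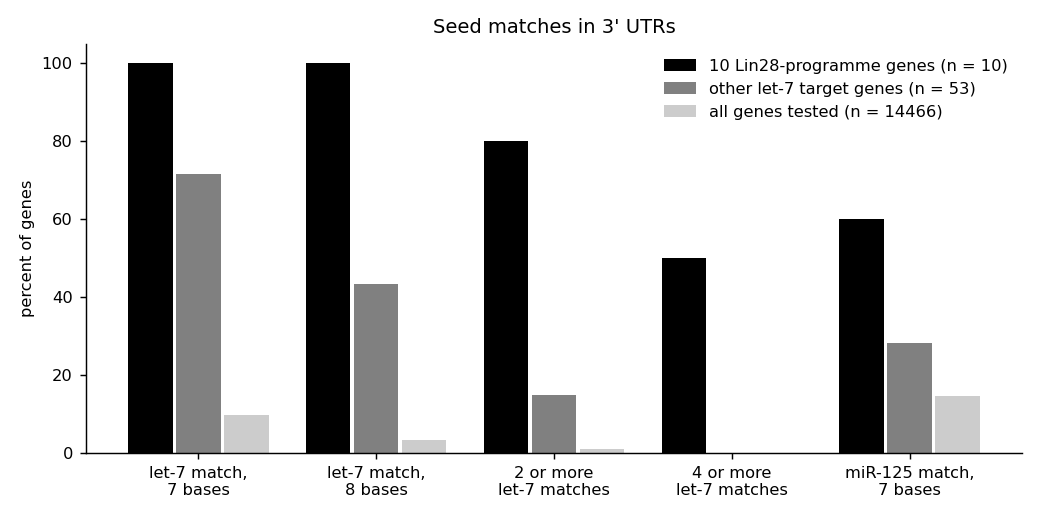
Percent of genes (vertical axis) whose 3′ UTR holds the let-7 or miR-125 seed match, for the 10 Lin28-programme genes, 53 other genes from a list of let-7 targets and all 14466 genes with a UTR (members included). The members reach 100.0% for a let-7 match of 8 bases, where all genes reach 3.44%.

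Lin28a (Entrez 83557, chr4:134003330-134019196 on GRCm38.p6) encodes the paralog that recruits terminal uridylyl transferases to the let-7 precursor. Its ESC libraries had 20.05 FPKM under DMSO, 21.57 under BPA, 19.98 under BPF and 20.18 under BPS. At EB day 4 the values, in the same order, were 181.78, 189.41, 200.35 and 212.58 FPKM, and at EB day 6 they were 264.16, 255.67, 253.38 and 263.18 FPKM. All day 6 libraries lay above all day 4 libraries, and all day 4 libraries above all ESC libraries.

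From EB day 6 on, Lin28a was lower at each later stage mean. EB day 9 gave 79.38, 87.57, 90.94 and 93.01 FPKM, EB day 12 gave 8.89, 8.02, 10.09 and 12.87 FPKM, and EB day 20 gave 9.70, 5.68, 7.02 and 6.23 FPKM. The day 12 and day 20 libraries overlapped, and the stage mean of day 12 was 3.85% of that of day 6. In the neural course RA EB day 8 gave 20.68, 23.87, 24.35 and 24 FPKM, a range that includes the BPA library of the ESCs. NPC day 10 gave 4.06, 6.08, 9.24 and 7.69 FPKM and overlapped EB days 12 and 20.

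Lin28b (Entrez 380669, chr10:45376617-45486314) encodes the paralog that holds let-7 precursors in the nucleus. It was at 1.05, 1.29, 0.99 and 1.21 FPKM in ESCs under DMSO, BPA, BPF and BPS, and at 10.38, 9.30, 10.91 and 11.87 FPKM at EB day 4. It was highest at EB day 6 (26.64, 25.27, 19.77 and 21.55 FPKM) and EB day 9 (26.06, 23.02, 23.42 and 23.85 FPKM), whose libraries overlapped. Lin28b thus held its level from day 6 to day 9, over which the Lin28a mean fell to 33.9% of its highest stage.

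Lin28b then came down later than Lin28a. EB day 12 gave 13.51, 7.89, 8.66 and 8.48 FPKM, with the DMSO library alone above the others, and EB day 20 gave 2.04, 0.96, 0.78 and 0.45 FPKM, the DMSO library again highest. RA EB day 8 gave 13.28, 14.18, 14.86 and 14.72 FPKM, and NPC day 10 gave 2.78, 3.65, 4.16 and 3.22 FPKM. On this per-length scale Lin28b was below Lin28a in 31 of the 32 libraries, the DMSO library of EB day 12 being the exception.

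Trim71 (lin-41, Entrez 636931, chr9:114511268-114564369), an RNA-binding ubiquitin ligase and the classic let-7 target of the worm, was the member with its highest stage mean in ESCs. Its ESC libraries had 10.91 to 12.29 FPKM, EB day 4 had 9.29 to 12.27 and EB day 6 had 10.06 to 11.22, and these 3 stages overlapped. EB day 9 lay at 5.73 to 7.05 FPKM, below all of them, EB day 12 at 1.34 to 2.01 and EB day 20 at 0.94 to 1.51. The neural libraries had 2.42 to 2.83 FPKM at RA EB day 8 and 0.93 to 1.34 at NPC day 10.

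Hmga2 (Entrez 15364, chr10:120361268-120476469), an AT-hook chromatin protein of fetal stem cells, was among the last to rise. It was at 4.87, 4.92, 3.98 and 4.18 FPKM in ESCs and at 7.49, 5.62, 6.38 and 5.95 FPKM at EB day 4. The values were 46.65, 55.18, 64.05 and 73.74 FPKM at EB day 6 and 103.78, 84.91, 101.73 and 105.20 FPKM at EB day 9. They were 45.24, 52.89, 65.02 and 69.87 FPKM at EB day 12, overlapping day 6, and 6.97, 6.74, 6.37 and 7.69 FPKM at EB day 20. RA EB day 8 had 78.53, 67.78, 64.10 and 62.22 FPKM, and NPC day 10 had 16.21, 10.62, 9.15 and 10.52 FPKM.

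The IMP genes encode RNA-binding proteins that stabilise and localise mRNAs such as Igf2, and they moved over a narrower range. Igf2bp1 (Entrez 140486, chr11:95957163-96005944) had its highest stage mean at EB day 6, 59.3 ± 1.48 FPKM (SD, n = 4), and was at 8.57 ± 1.03 at EB day 20. Igf2bp2 (Entrez 319765, chr16:22059009-22163299) was highest at EB day 9, 115.35 ± 3.15, and at 25.5 ± 2.87 at EB day 20. Igf2bp3 (Entrez 140488, chr6:49085218-49215469) was highest at EB day 6, 82.4 ± 4.27, and at 15.8 ± 1.63 at EB day 20. The ratio of the highest to the lowest stage mean was 6.92 for Igf2bp1, 4.53 for Igf2bp2 and 5.21 for Igf2bp3, against 10.6 to 98.1 for the other members. At EB day 12 these 3 genes still had 54.1% to 77.5% of their highest stage mean.

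Igf2bp3 stood apart in the neural course. Its NPC libraries had 50.93 to 57.42 FPKM, which was 66.2% of its highest stage mean, while the NPC libraries of Igf2bp1 had 11.54 to 15.69 FPKM and those of Igf2bp2 36.55 to 42.67 FPKM. The NPC libraries of Igf2bp3 overlapped those of EB day 12 (54.02 to 60.59 FPKM) and lay above all EB day 20 libraries (13.60 to 17.11 FPKM).

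Prtg and Igdcc3 encode receptors of the immunoglobulin superfamily related to neogenin and DCC. Prtg (protogenin, Entrez 235472, chr9:72807274-72917307) had the widest range of the 10. It was at 1.53 to 1.70 FPKM in ESCs, 15.78 to 19.85 at EB day 4, 68.05 to 88.02 at EB day 6 and 50.98 to 62.34 at EB day 9. It was down to 4.94 to 7.42 FPKM at EB day 12 and 1.44 to 2.19 at EB day 20, and the neural libraries had 9.62 to 13.19 at RA EB day 8 and 0.69 to 0.98 at NPC day 10. Each step between neighbouring levels was free of overlap, except that between EB day 20 and ESCs.

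Igdcc3 (Punc, Entrez 19289, chr9:65141154-65187031) was the most abundant of the 10 at EB days 9 and 12. It was at 4.45, 4.98, 5.31 and 5.37 FPKM in ESCs, 7.98, 6.99, 8.75 and 8.30 at EB day 4, and 49.55, 40.55, 32.06 and 37.04 at EB day 6. The values were 251.06, 212.84, 172.09 and 157.64 FPKM at EB day 9, then 273.78, 181.96, 149.92 and 132.16 FPKM at EB day 12, and 6.44, 3.92, 4.35 and 4.57 FPKM at EB day 20. The DMSO library was the highest at each of these 4 EB stages from day 6 on. RA EB day 8 had 184.50, 170.33, 190.88 and 198.31 FPKM and NPC day 10 had 18.10, 33.48, 33.64 and 34.93 FPKM, the DMSO library lowest.

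Nr6a1 (germ cell nuclear factor, Entrez 14536, chr2:38723369-38926461), an orphan nuclear receptor that represses Pou5f1 after implantation, followed Lin28a. It was at 6.87 to 8.07 FPKM in ESCs, 42.59 to 51.44 at EB day 4 and 64.68 to 85.17 at EB day 6. It was at 24.70 to 26.45 FPKM at EB day 9, 4.34 to 5.53 at EB day 12 and 3.72 to 5.74 at EB day 20. RA EB day 8 had 8.79 to 11.16 FPKM, and NPC day 10 had 3.01 to 6.24, overlapping EB days 12 and 20.

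**Figure D2:**
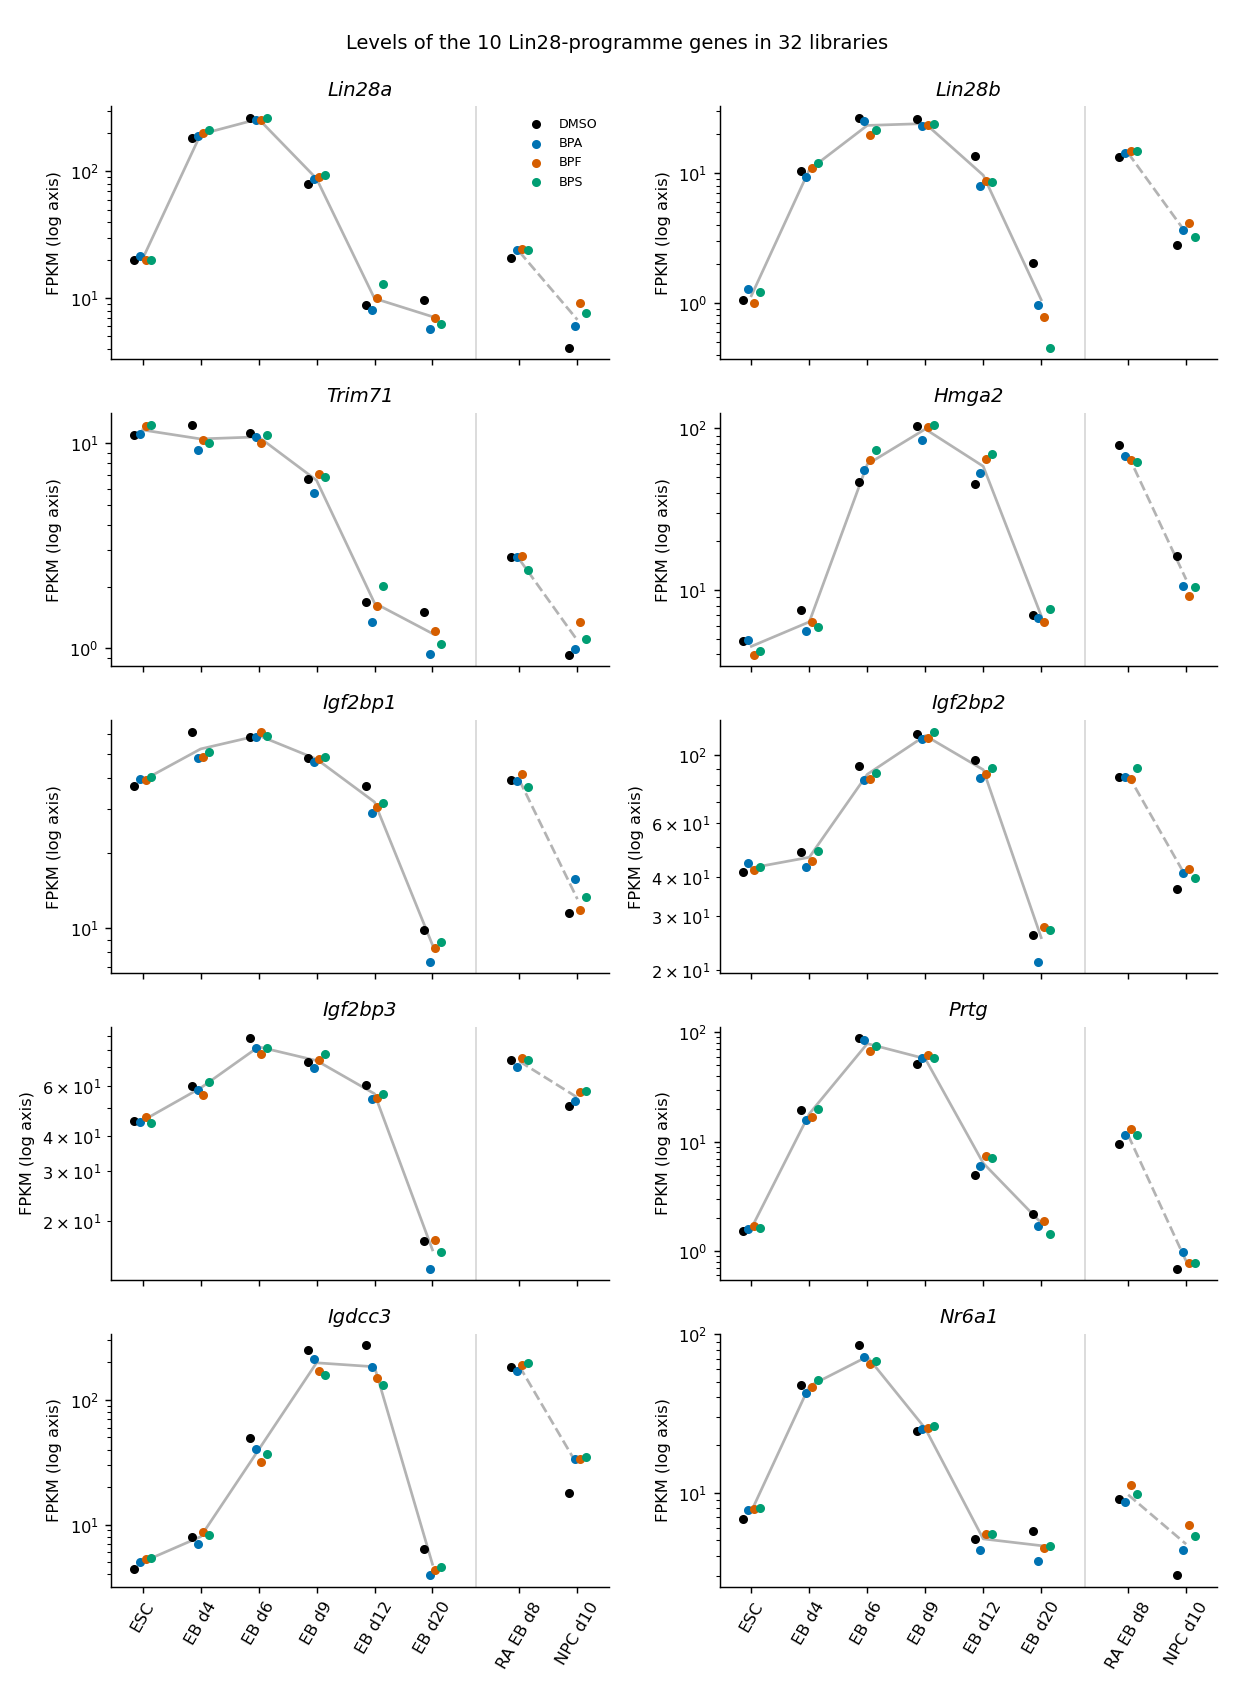
FPKM (log axis) of the 10 genes in each of the 32 libraries by stage. Points are single libraries coloured by treatment, lines join the stage means of the global course (solid) and the neural course (dashed). Lin28a reaches 264.16 FPKM at EB day 6, and Igdcc3 reaches 273.78 FPKM at EB day 12.

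The 10 genes therefore differed in when they were highest. The highest stage mean fell at ESC for Trim71, at EB day 6 for Lin28a, Igf2bp1, Igf2bp3, Prtg and Nr6a1, and at EB day 9 for Lin28b, Hmga2, Igf2bp2 and Igdcc3. The lowest fell at EB day 20 for 6 of the 10, at NPC day 10 for Lin28a, Trim71 and Prtg, and in ESCs for Hmga2. Of the 70 neighbouring pairs in the 10 orders of stage means, 31 had overlapping libraries.

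The timing of the fall, which the rule used, is given without a test. EB day 12 differed from day 9 by -3.18 ± 0.16 (log2, SE) for Lin28a, -3.21 ± 0.13 for Prtg, -2.35 ± 0.14 for Nr6a1 and -2.02 ± 0.11 for Trim71, but by -0.15 ± 0.19 for Igdcc3 and -0.80 ± 0.13 for Hmga2. From day 12 to day 20 the order was different. Igdcc3 then differed by -5.35 ± 0.24, Lin28b by -3.30 ± 0.23 and Hmga2 by -3.18 ± 0.15, while Lin28a differed by -0.57 ± 0.16 and Nr6a1 by -0.27 ± 0.15. Nr6a1 and Lin28a had the smallest differences at this last step. Over all genes 14.7% were called between days 6 and 9 (10.7% higher, 3.97% lower), 9.99% between days 9 and 12 (7.56% higher, 2.43% lower) and 26.4% between days 12 and 20 (17.6% higher, 8.78% lower). A call between stages here means an adjusted p under 0.05 and a log2 change of at least 1 in edgeR's quasi-likelihood fit.

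Across the 32 libraries the correlation of log2(FPKM + 1) was 0.99 for Lin28a with Nr6a1, 0.92 for Hmga2 with Igdcc3 and 0.90 for Hmga2 with Igf2bp2. It was 0.69 for Lin28a with Lin28b and lowest, -0.21, for Trim71 with Igdcc3. The median over the 45 pairs was 0.70. The libraries share their stages, so these values describe stage courses and carry no p.

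Among 12387 other genes with a mean of at least 1 FPKM, the patterns most like that of Lin28a by Pearson's r over the 32 libraries were those of Wdr86 (0.944), Mapk1ip1l (0.935), Eml4 (0.928), Pkp2 (0.923) and Emb (0.923). For Lin28b they were Smad4 (0.967), Pde3b (0.967), Fndc3c1 (0.960), Rabl6 (0.955) and Mta1 (0.954). For Hmga2 they were Wnt1 (0.959), Sox13 (0.937), Kif7 (0.937), Galnt1 (0.935) and Plagl2 (0.934). Gene models without a proper name were left out of the 12387. By Spearman's rho the closest was Mapk1ip1l for Lin28a, Pde3b for Lin28b and Plagl2 for Hmga2. Several of the others ranked far lower by rho. For Hmga2, Kif7 ranked 270 (rho 0.758), Wnt1 58 and Sox13 41, and for Lin28a, Emb ranked 212 and Wdr86 32.

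The entry into EBs, before the falls that the rule used, was tested first. Genes chosen for falling late are high in earlier EBs, so a rise by day 4 may partly follow from the choice. From ESC to EB day 4, 4 of 10 members rose and none fell, where 28% of the 15632 genes tested were called. Lin28a rose 9.66-fold (log2 3.27 ± 0.15, adjusted p = 1.6e-16), Lin28b 9.44-fold (3.24 ± 0.22, 6.3e-13), Prtg 11.3-fold (3.50 ± 0.14, 4e-18) and Nr6a1 6.19-fold (2.63 ± 0.14, 1.8e-15), with Benjamini-Hochberg adjustment over all genes. The other 6 lay between -0.13 (Trim71) and 0.68 (Igdcc3) on the log2 scale. The median over the members was 0.60 and over all genes 0.00.

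From EB day 4 to day 6, 4 of 10 members rose and none fell, with 19.5% of all genes called. Day 6 is also where the falls used by the rule begin, so a high day 6 partly follows from the choice. The values of this step are therefore a description. Hmga2 rose 9.13-fold (log2 3.19 ± 0.15), Igdcc3 4.78-fold (2.26 ± 0.21), Prtg 4.26-fold (2.09 ± 0.12) and Lin28b 2.12-fold (1.08 ± 0.18). The Lin28b call was lost without the DMSO libraries (log2 0.99) and without the BPA libraries (0.97). Igf2bp2, at 0.85 ± 0.06, Nr6a1, at 0.58 ± 0.13, Igf2bp3, at 0.44 ± 0.06, and Lin28a, at 0.36 ± 0.14, did not reach the fold threshold. The log2 change was positive for 9 of 10 members, with a median of 0.72 against 0.00 over all genes.

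The neural course, which starts from the shared EB day 4 libraries, was tested next. As the members were chosen for being high in earlier EBs, a fall from EB day 4 may partly follow from the choice. From EB day 4 to RA EB day 8, 2 members rose and 3 fell, with 34.7% of all genes called, 19% higher and 15.7% lower. Hmga2 rose 9.98-fold (log2 3.32 ± 0.15, adjusted p = 6.6e-17) and Igdcc3 21.7-fold (4.44 ± 0.22, 4.6e-16). Lin28a fell 9.06-fold (-3.18 ± 0.15, 1.5e-16), Nr6a1 5.21-fold (-2.38 ± 0.14, 6.5e-15) and Trim71 4.14-fold (-2.05 ± 0.11, 7.5e-16) by edgeR. Lin28b, at 0.33 ± 0.18, was not called. Prtg, at -0.75 ± 0.12, did not reach the fold threshold.

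From RA EB day 8 to NPC day 10 all 10 members were lower and 8 of 10 were called lower, with none called higher. Over all genes 35.5% were called, 18.1% higher and 17.4% lower. Prtg fell 13.5-fold (log2 -3.76 ± 0.15, adjusted p = 2.9e-18), Igdcc3 5.82-fold (-2.54 ± 0.20, 5.7e-12), Hmga2 5.58-fold (-2.48 ± 0.14, 9.6e-15), Lin28b 3.93-fold (-1.97 ± 0.19, 5.7e-10) and Lin28a 3.28-fold (-1.71 ± 0.16, 1.4e-10) by edgeR. Igf2bp1 fell 2.84-fold, Trim71 2.36-fold and Igf2bp2 2.03-fold, and the call of Igf2bp2 was lost with another normalization or DESeq2 (-0.97 in both). Nr6a1, at -0.95 ± 0.14, and Igf2bp3, at -0.35 ± 0.06, stayed under the fold threshold. The median was -1.61 over the members and -0.01 over all genes.

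This step also changes the culture from EBs to a monolayer and the cells in it. All 8 markers of cycling cells fell in the same comparison (median log2 -2.36), from a summed level of 965 to 978 FPKM at RA EB day 8 to 188 to 216 FPKM at NPC day 10. All 8 neuron markers rose (median 3.44), and 7 of 8 mesenchyme markers rose. Their part in the members' fall was not tested.

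Over the whole neural course, NPC day 10 against EB day 4, 6 members were lower and 1 was higher, with 53.7% of all genes called, 27.9% higher and 25.9% lower. Lin28a was 29.7-fold lower, Prtg 22.8-fold, Nr6a1 10-fold, Trim71 9.76-fold, Igf2bp1 4.07-fold and Lin28b 3.12-fold. With EB day 4 as the baseline, lower levels may here too partly follow from the choice. Igdcc3 was 3.73-fold higher (log2 1.90 ± 0.21, adjusted p = 3.5e-09 by edgeR). Hmga2 (0.84 ± 0.15), Igf2bp2 (-0.24 ± 0.06) and Igf2bp3 (-0.14 ± 0.06) were under the fold threshold.

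**Figure D3:**
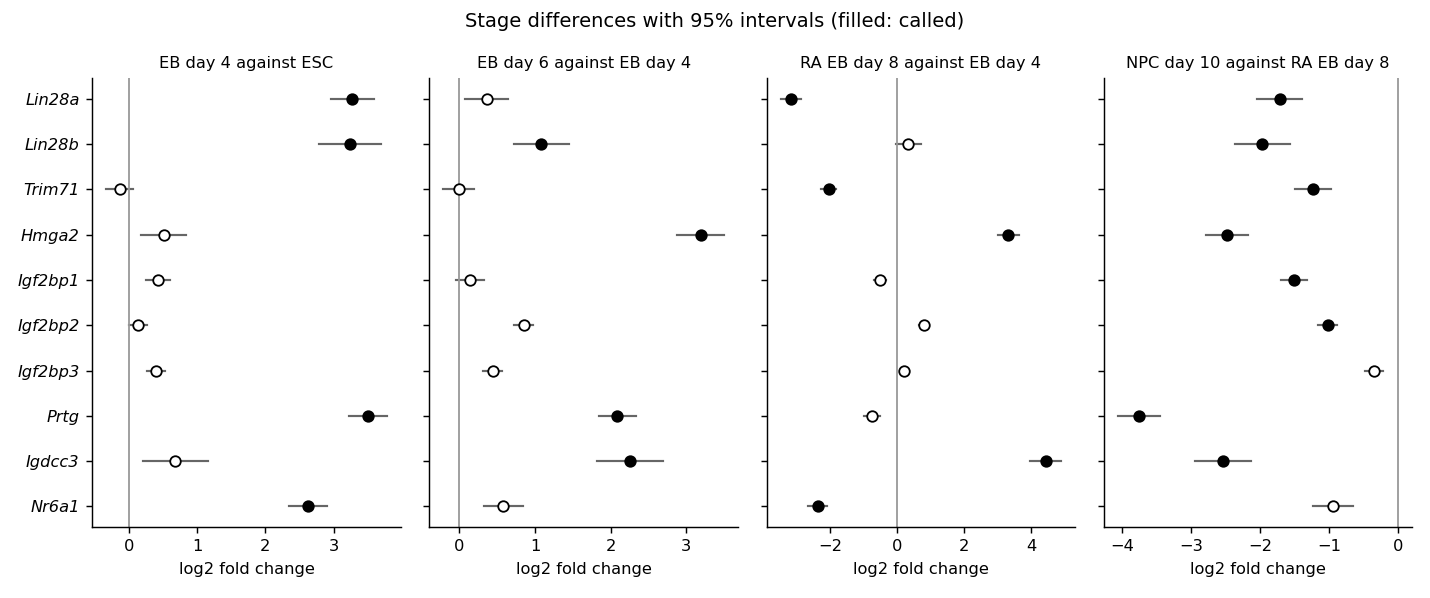
Log2 fold change of each gene (horizontal axes, each panel with its own scale) with its 95% interval in 4 stage comparisons, from edgeR's fit to all 32 libraries. Filled points passed both thresholds. The panel of EB day 6 against EB day 4 is a description, as day 6 begins the falls used by the rule. Between RA EB day 8 and NPC day 10 all 10 points lie below 0, from -3.76 for Prtg to -0.35 for Igf2bp3.

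Side by side, the neural libraries at day 8 had members at levels that the global course reached at different days. RA EB day 8 stood at 93.7% of the highest stage mean for Igdcc3, 88.9% for Igf2bp3, 74.4% for Igf2bp2, 68.9% for Hmga2 and 59.2% for Lin28b. It stood at 8.96% for Lin28a, 13.4% for Nr6a1, 14.5% for Prtg and 23.4% for Trim71. The late EB libraries chose the members, so this comparison has no test.

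Other genes of the pathway were described by lists. Of 27 genes of microRNA processing and let-7 control, 27 were tested, and 1 was called in the step from ESC to EB day 4, 1 from EB day 4 to 6, 6 from EB day 4 to RA EB day 8 and 3 from there to NPC day 10. Trim25, a cofactor of the Lin28a and Tut4 complex, was called lower in 3 of these 4 steps. From EB day 4 to day 6 it was also lower, at 10.5 ± 0.53 FPKM (log2 -0.73 ± 0.07), but under the fold threshold. It was at 39.5 ± 1.47 FPKM in ESCs, 16.9 ± 0.80 at EB day 4, 4.998 ± 0.113 at RA EB day 8 and 1.11 ± 0.15 at NPC day 10 (SD, n = 4). Msi1, a neural RNA-binding protein, rose from 34.7 ± 3.25 FPKM at EB day 4 to 156.6 ± 5.06 at RA EB day 8 (log2 2.07 ± 0.12, edgeR adjusted p = 9.2e-15). The list's median was 0.05, -0.10, 0.25 and 0.01 in these 4 comparisons, against 0.00, 0.00, 0.03 and -0.01 over all genes. Of all genes 28%, 19.5%, 34.7% and 35.5% were called in them.

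The 53 tested genes of a list of other let-7 targets did not move in 1 direction between RA EB day 8 and NPC day 10. There 11 rose and 15 fell, with a median of -0.38 against -0.01 over all genes. Of all genes 18.1% were called higher and 17.4% lower. Ccnd2, a cyclin, fell from 240.1 ± 16.6 to 22.8 ± 2.46 FPKM (log2 -3.32 ± 0.16, edgeR adjusted p = 1.3e-16), and Sall4, a stem cell zinc finger protein, fell from 10.4 ± 0.28 to 1.08 ± 0.21 FPKM (-3.21 ± 0.14, 1.5e-17). From ESC to EB day 4, 14 of the 53 rose and 2 fell, and from EB day 4 to day 6, 11 rose and none fell. The shares of all genes called higher and lower were 14.4% and 13.6%, then 10.8% and 8.75%. In the global course 5 rose and 1 fell from day 6 to 9, and 1 rose and 5 fell from day 9 to 12. From day 12 to day 20, 4 rose and 21 fell (median -0.78), with 17.6% of all genes called higher and 8.78% lower. Cell cycle genes are on this list, and cycling markers moved in the NPC step as given above.

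Transcripts of let-7 host genes were mostly at or near the listing limit. Of 19 genes on that list 7 were listed in any library and 4 were tested. Mir100hg, the host transcript of let-7a-2, miR-100 and miR-125b-1, was listed at 0 to 0.03 FPKM in the ESC and EB day 4 libraries. It was at 1.35 to 2.23 FPKM at RA EB day 8 and 8.67 to 9.97 FPKM at NPC day 10, a rise between these stages of 3.08 ± 0.20 (log2, edgeR adjusted p = 1.6e-13). Of the other 3 tested, Huwe1 (26.6 ± 1.71 to 30.3 ± 2.02 FPKM, log2 0.26 ± 0.12) and Wdr82 (36.8 ± 2.44 to 46.8 ± 2.29 FPKM, 0.43 ± 0.07) stayed under the fold threshold in that step. Mir99ahg, named after its values were seen, was called lower, at 0.78 to 1.09 FPKM and then 0.25 to 0.47 FPKM. In the global course Mir100hg was at 0 to 0.06 FPKM at EB day 6, 1.37 to 2.45 at day 9, 5.07 to 10.43 at day 12 and 10.67 to 22.36 at day 20. Host transcripts are not mature microRNAs, and let-7 itself is not measured by them.

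Of 22 late temporal factors, genes known to come up as neural progenitors age, 8 rose and 2 fell from RA EB day 8 to NPC day 10, with a median of 0.73. Of all genes 18.1% were called higher and 17.4% lower in this step. Nfia rose from 0.45 ± 0.11 to 2.40 ± 0.42 FPKM (log2 2.49 ± 0.18, edgeR adjusted p = 1.1e-12), Bcl11b by 2.40 ± 0.21 and Hopx by 2.20 ± 0.40. From EB day 4 to RA EB day 8, 11 rose and 4 fell, with 19% of all genes called higher and 15.7% lower. Pou3f2, Pou3f3 and Nr2f1 averaged 0.0725, 0.045 and 0.04 FPKM at EB day 4 and 30.2 ± 1.52, 39.1 ± 0.70 and 71.8 ± 5.69 FPKM at RA EB day 8. Of 21 early-embryo timing genes, 2 rose and 11 fell from RA EB day 8 to NPC day 10 (median -1.85), with Cyp26a1, which degrades retinoic acid, falling from 102.4 ± 13.4 to 0.90 ± 0.47 FPKM.

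Of 20 insulin and IGF signalling genes and IMP-bound mRNAs, 9 rose and 1 fell from ESC to EB day 4, and 4 rose and none fell from EB day 4 to day 6. Of all genes 14.4% were called higher and 13.6% lower from ESC to EB day 4, and 10.8% and 8.75% from EB day 4 to day 6. Igf2, the mRNA that gave the IMPs their name, rose from 15.2 ± 0.64 to 193.7 ± 22.4 FPKM between EB days 4 and 6 (log2 3.56 ± 0.36, edgeR adjusted p = 3.1e-09). From RA EB day 8 to NPC day 10, 3 rose and 3 fell, and Igfbp2 fell from 412.9 ± 33.97 to 137.1 ± 32.8 FPKM. Among 14 tested relatives of the members in the same protein families, 6 rose and 4 fell in that step. Of all genes 18.1% were called higher and 17.4% lower there. Dcc rose from 4.595 ± 0.497 to 28.7 ± 1.26 FPKM, while its relatives Prtg and Igdcc3 fell. Csdc2, a cold shock domain protein as the LIN28s are, rose from 1.92 ± 0.54 to 22.5 ± 1.35 FPKM (3.64 ± 0.14, 2.5e-18). Hmga1b, a near copy of Hmga1 whose reads may be shared with it, fell by 2.25 ± 0.10 on the log2 scale.

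The bisphenols were compared with DMSO first over all 8 stages. None of the 10 members was called for BPA, BPF, BPS or the mean of the 3 (edgeR, adjusted p under 0.05), where 0.166%, 0.992%, 1.15% and 2.73% of all genes were called. Of all genes 0.102% were called higher and 0.064% lower for BPA, 0.422% and 0.569% for BPF, 0.621% and 0.525% for BPS, and 1.04% and 1.69% for the mean of the 3. At an unadjusted p under 0.05 there were 2 members for BPA, Trim71 (-0.20 ± 0.08) and Igf2bp3 (-0.11 ± 0.04), and 0 for the others, and DESeq2 and limma also called 0. Lin28b was at -0.22 ± 0.11 for the mean of the 3 (95% interval -0.45 to 0.01, adjusted p = 0.31) and Igdcc3 at -0.22 ± 0.12 (-0.46 to 0.02, 0.33). Without the NPC libraries Igdcc3 was called lower (-0.36, adjusted p = 0.023). In the global EBs of day 6 to 20 alone, Lin28b (-0.54, 0.023) and Igdcc3 (-0.62, 2.3e-04) were called lower. The shares of all genes given here belong to the fit of all 8 stages, not to these reduced fits.

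The compounds share a pair of phenol rings and differ in the bridge between them. The 3 pairs were compared at the same dose and days, which gave 30 comparisons over the 10 members, and none was called. Of all genes 0% were called between BPA and BPF, 0.0064% between BPA and BPS and 0% between BPF and BPS. The log2 differences ran from -0.17 to 0.04, with 95% intervals that lay within -0.38 to 0.34, and the lowest p adjusted over all genes was 0.66. At an unadjusted p under 0.05 there were 1, 2 and 0 members, and DESeq2 and limma called 0. A log2 difference of up to these bounds between compounds is not excluded by the intervals.

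Single stages were tested with the 3 bisphenol libraries as 1 group against the DMSO library. The spread came only from differences among the BPA, BPF and BPS libraries within stages, as a lone DMSO library leaves none. The DMSO library was assumed to vary as they do, and the p-values treat the 3 compounds as replicates. With 1 DMSO library a stage, a treatment difference and a difference of that single culture cannot be told apart. The shares of all genes given for single stages belong to the fit with all 3 bisphenols. They do not apply where a compound was left out. No member was called in ESCs, where 0% of all genes were called, at EB day 4 (0.563%), EB day 6 (2.55%) or RA EB day 8 (2.34%). At an unadjusted p under 0.05 the members numbered 0, 2, 4 and 1 in these stages, and DESeq2 called 1, at EB day 4, and 0 in the other 3. Without BPA, 4 members were called at EB day 6 (Lin28b, Hmga2, Igdcc3 and Nr6a1). At EB day 9, 1 of 10 was called, Igdcc3 at -0.49 ± 0.14 (adjusted p = 0.027), with 7.49% of all genes called. That call was lost without BPF (adjusted p = 0.17), without BPS (0.097) and in limma (0.067 and 0.091).

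At EB day 12, 2 members were called higher and 3 lower, with 18.9% of all genes called. The DMSO library had 13.51 FPKM of Lin28b and the bisphenol libraries 7.89 to 8.66, a log2 difference of -0.74 ± 0.14 (edgeR adjusted p = 5e-04). Igdcc3 stood at 273.78 under DMSO and at 132.16 to 181.96 under the bisphenols (-0.86 ± 0.14, 5.3e-05). Hmga2 went the other way, with 45.24 FPKM under DMSO and 52.89 to 69.87 under the bisphenols (0.43 ± 0.14, 0.036), as did Prtg (0.43 ± 0.14, 0.039). Igf2bp1 was at -0.33 ± 0.10 (0.018). Without BPF, or without BPS, only the calls of Lin28b and Igdcc3 were kept.

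At EB day 20, 4 members were called lower under the bisphenols and none higher, with 19.6% of all genes called. For Hmga2, Igf2bp2 and Igf2bp3 the bisphenol libraries lay on both sides of the DMSO library. Lin28b had 2.04 FPKM under DMSO and 0.45 to 0.96 under the bisphenols (-1.55 ± 0.26, edgeR adjusted p = 1e-04). Lin28a had 9.70 and 5.68 to 7.02 FPKM (-0.68 ± 0.18, 0.0094), Igdcc3 6.44 and 3.92 to 4.57 FPKM (-0.65 ± 0.22, 0.042), and Igf2bp1 9.81 and 7.34 to 8.81 FPKM (-0.33 ± 0.11, 0.036). The call of Igdcc3 was lost without BPF (adjusted p = 0.14) and with a filter of 5 CPM (0.061). That of Igf2bp1 was lost without any 1 of the bisphenols (0.054 to 0.11), with that filter (0.083) and in limma (0.1 and 0.11).

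The late EB libraries also differed in markers of cell types. At EB day 12 the 8 mesenchyme markers summed to 31.1 FPKM under DMSO and 443 to 467 under the bisphenols, and 8 of 8 were higher in all 3 bisphenol libraries. The 9 neural progenitor markers summed to 1853 FPKM under DMSO and 1473 to 1527 under the bisphenols, with 9 of 9 lower in all 3. The 6 cardiomyocyte markers summed to 1.14 FPKM under DMSO and 13.5 to 124.1 under the bisphenols, and the 5 endothelium markers to 2.53 and 12.01 to 26.14 FPKM, with all of both lists higher in all 3. At EB day 20 the mesenchyme sum was 132 FPKM under DMSO and 1229 to 1359 under the bisphenols, and 7 of 8 neuron markers were lower in all 3. The neural progenitor sum at that day was 919.8 FPKM under DMSO and 1040 to 1139 under the bisphenols. Of its 9 markers, however, 3 were higher and 4 lower in all 3 bisphenol libraries. The cycling sum was 149.8 FPKM under DMSO and 185.1 to 199.1 under the bisphenols, with 8 of 8 markers higher in all 3. At EB day 9 the mesenchyme sum was 47.0 FPKM against 145 to 203. Their part in the differences of Lin28b, Igdcc3 and the other members was not tested.

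At NPC day 10, 3 members were called higher under the bisphenols and 1 lower, with 2.25% of all genes called. Igdcc3 had 18.10 FPKM under DMSO and 33.48 to 34.93 under the bisphenols (0.91 ± 0.17, edgeR adjusted p = 0.0021). Lin28a had 4.06 and 6.08 to 9.24 FPKM (0.92 ± 0.21, 0.013) and Nr6a1 3.01 and 4.37 to 6.24 FPKM (0.82 ± 0.19, 0.014). Hmga2 had 16.21 and 9.15 to 10.62 FPKM (-0.68 ± 0.16, 0.013). In this stage the mesenchyme sum was 413 FPKM under DMSO and 172.2 to 200.5 under the bisphenols, with 8 of 8 markers lower in all 3, and its part was not tested. None of the 4 calls was kept without BPF (adjusted p 0.052 to 0.23), and that of Nr6a1 was also lost without BPS (0.069).

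**Figure D4:**
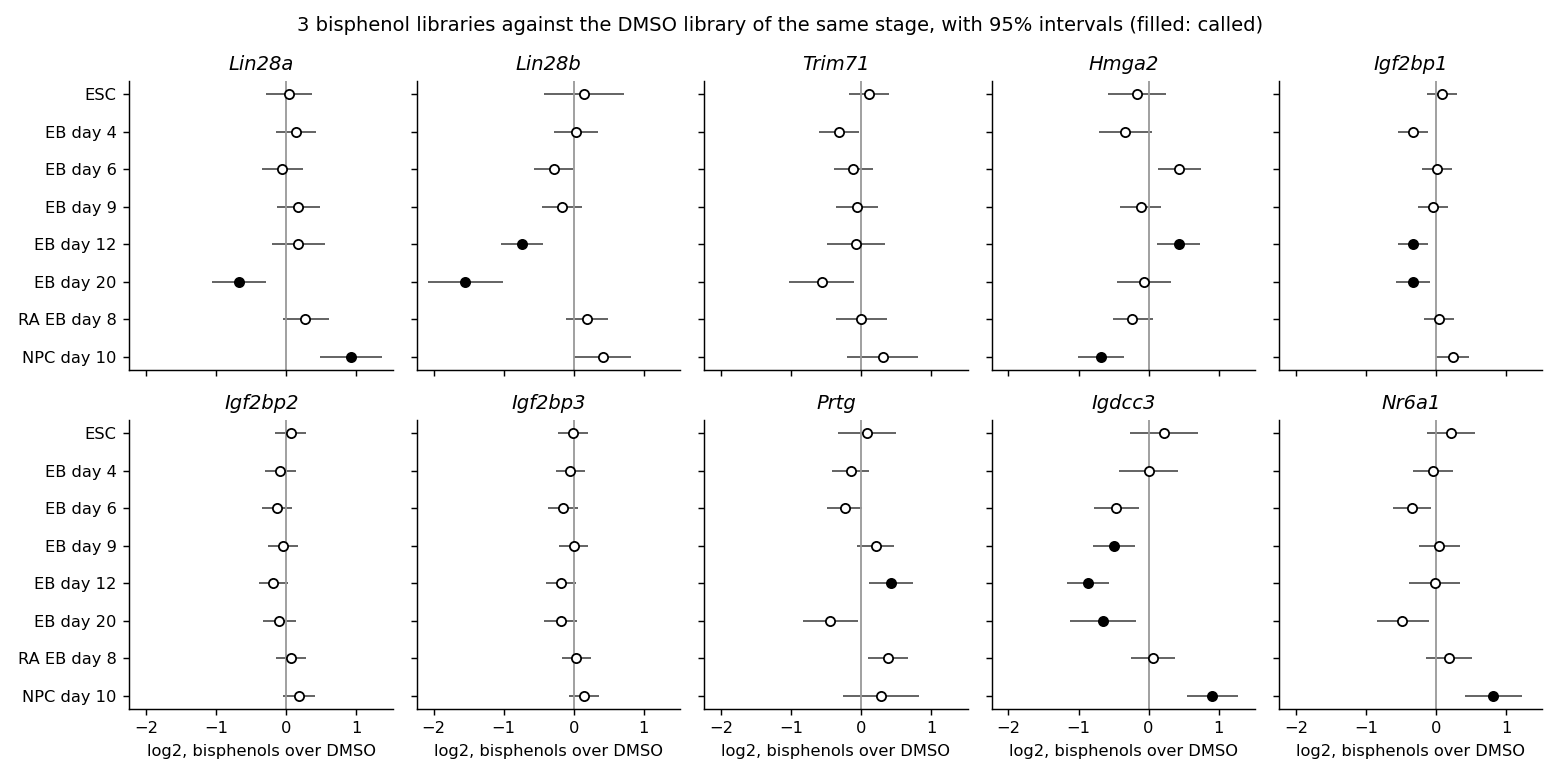
Log2 difference between the 3 bisphenol libraries and the DMSO library (horizontal axes) with its 95% interval, by stage (rows) and gene (panels), from edgeR's fit. Filled points passed an adjusted p of 0.05. Lin28b is lowest at EB day 20 (-1.55), and Igdcc3 lies at -0.86 at EB day 12 and 0.91 at NPC day 10.

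The difference between the courses was tested itself. As each stage has 1 DMSO library, a difference in effect and a deviating control culture cannot be told apart. In 24 libraries from EB day 6 on and the neural stages, 15084 genes were tested and 8.79% had a bisphenol effect that differed between the neural and the global course. Among the 10 members 3 were called with a higher value in the neural course, Igdcc3 (1.04 ± 0.19, edgeR adjusted p = 0.0018), Lin28b (0.80 ± 0.22, 0.025) and Nr6a1 (0.64 ± 0.18, 0.032), and Hmga2 with a lower value (-0.63 ± 0.17, 0.026). Without the NPC libraries, a choice made after the data were seen, none of the 4 was called (0.68 for Igdcc3 with adjusted p = 0.072, 0.72 for Lin28b with 0.16). Without EB day 12, Igdcc3 and Nr6a1 were called. Without BPF, and likewise without BPS, Igdcc3 alone was called. The call of Lin28b was also lost without BPA (0.052) and that of Nr6a1 without EB day 20 (0.063).

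**Figure D5:**
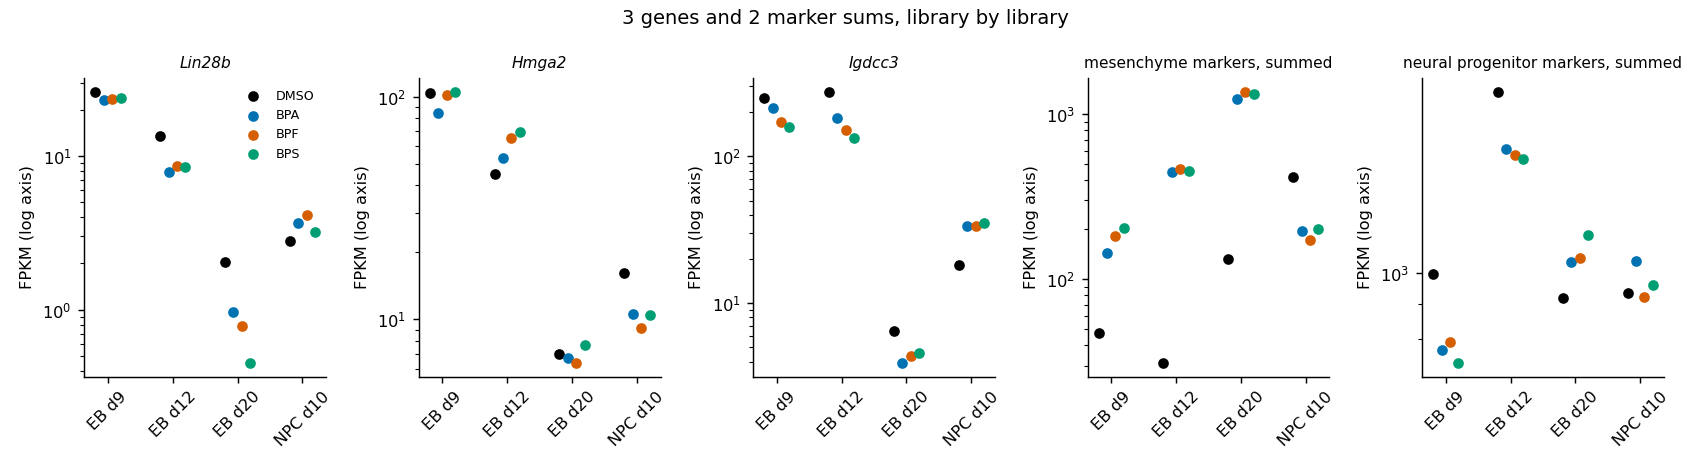
FPKM (log axes) of Lin28b, Hmga2 and Igdcc3 and summed FPKM of 8 mesenchyme and 9 neural progenitor markers in each library of 4 stages, coloured by treatment. The DMSO library has the lowest mesenchyme sum at EB day 9 (47.0), EB day 12 (31.1) and EB day 20 (132), and the highest at NPC day 10 (413).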

How the data were processed

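Total RNA of 32 cultures was sequenced, 1 library for each of 8 stages and 4 treatments. The authors deposited an expected count and an FPKM value for each listed gene. Per the submitters' processing notes Bowtie2, HISAT, RSEM and the mm10 build were used to make the expected counts and FPKM values the authors deposited, with versions not given in the sources used here. Genes a library did not list were taken as 0. Expected counts were rounded and tested with edgeR 4.0.16 (R 4.3.3), quasi-likelihood, TMM factors of 0.923 to 1.143, keeping 15632 genes with at least 1 CPM in 4 libraries, with Benjamini-Hochberg adjustment over all of them. Stage and treatment entered as additive terms (21 residual degrees of freedom). For single stages the bisphenols were set against DMSO within each stage (16). The spread there came from the bisphenol libraries only, and the lone DMSO library is assumed to vary like them. The neural against global fit used 24 libraries (16). Calls needed an adjusted p under 0.05, and between stages also a log2 change of 1. Levels are the deposited FPKM. Alternatives were RLE factors, other filters, DESeq2 1.42.0, limma 3.58.1 on log2(FPKM + 1) or log2(FPKM + 0.1), and leaving out each treatment or stage. Per list and comparison, the 3 called genes with the largest change and at least 1 FPKM in either group could be named. The fits were tested on simulated data. The members and lists were chosen with earlier results of these data known.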

Additional observations from a re-analysis of the deposited data

Results flagged for a closer look

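In 5 of 80 groups of 4 libraries, 1 library stood apart from the other 3 by Dixon's criterion, where chance gives about 1 in 20, and 3 of the 5 were DMSO libraries. Lin28a was at 21.57 FPKM in the BPA library of the ESCs against 19.98 to 20.18 in the others. Lin28a was at 20.68 FPKM in the DMSO library of RA EB day 8 against 23.87 to 24.35. Lin28b was at 13.51 FPKM in the DMSO library of EB day 12 against 7.89 to 8.66. Trim71 was at 2.42 FPKM in the BPS library of RA EB day 8 against 2.79 to 2.83. Igdcc3 was at 18.1 FPKM in the DMSO library of NPC day 10 against 33.48 to 34.93.

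The bisphenol effect differed between the neural and the global course, tested as an interaction in edgeR, for 4 members. The log2 difference was 1.04 for Igdcc3, 0.8 for Lin28b, 0.64 for Nr6a1 and -0.63 for Hmga2. None of these calls was kept without the NPC libraries. With 1 DMSO library a stage, such a difference cannot be told apart from a deviating control culture.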

How the results depend on the processing

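Of the counts of called members under the alternatives, 223 stayed within 1.5 times the value given and 21 did not. Leaving out 1 treatment or stage at a time, the members called numbered 0 to 4 at EB day 6, 0 to 1 at EB day 9, 2 to 5 at EB day 12, 2 to 4 at EB day 20 and 0 to 4 at NPC day 10. They numbered 1 to 3 for the neural against the global course and 0 to 1 for the mean of the 3 bisphenols over the stages. With limma 0 members were called at EB day 9 for both pseudocounts, and 2 at EB day 12 with a pseudocount of 0.1. A filter of 5 CPM left 2 at EB day 20, and DESeq2 called 1 at EB day 4. In the global course alone the members called were 1 for BPA, 1 for BPF, 3 for BPS and 2 for the mean of the 3. The shares of all genes given in the sections above belong to the main fits, not to these alternatives. Chosen after seeing the data, the neural against global comparison without NPC day 10 called 0 and without EB day 12 called 2. Trim71 between EB days 4 and 6 changed sign, from -0.01 to 0.04 with limma at either pseudocount and without the DMSO libraries, and ran from -0.07 to 0.04 when 1 treatment was left out. Apart from effects of fewer libraries or genes, the cause was not tested. No paired analysis was possible because each stage and treatment has 1 library, and the labels give no replicate numbers beyond that. The stage comparisons already hold treatment as a term of the fit.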

Other observations

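Genes other than the 10 members were set out by their let-7 matches, as a description with no test. From RA EB day 8 to NPC day 10, where 8 of the 10 members fell, the 488 other genes with a match of 8 bases had a median log2 change of -0.01, and 14.5% of them were called lower against 17.6% of the 13043 genes with no match. The 164 genes with 2 or more matches had a median of 0.08. From EB day 12 to day 20 the genes with a match of 8 bases had a median of -0.13 and those with 2 or more matches -0.15, against 0 for genes with no match, and 10.7%, 13.4% and 8.63% were called lower. The genes differ in UTR length, which these groups do not hold fixed.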
